A study of Homo sapiens with 5 samples.

Results

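CT45A2, CT45A5, CT45A6 and SAGE1 are 4 cancer-testis genes that lie in a cluster on the long arm of the human X chromosome. They were taken as the rows of these gene names in a table of poly(A) site reads, and were chosen by their read counts, for loss in knockout lines of CFIm68. Their reads in the CFIm68 lines are therefore given as a description, with no test. They are 4 of 29792 genes with a site of their own in the table, and they hold 13 of its 272248 distinct sites. The 3 other CT45A copies in the table, CT45A1, CT45A3 and CT45A4, are described beside them. Of these copies, CT45A3 and CT45A4 lie between CT45A2 and CT45A5.

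All cells were of HEK293T, an established line from human embryonic kidney. The 5 libraries were 1 of wild type control cells, 2 of CFIm59 knockout cells and 2 of CFIm68 knockout cells, and both knockouts had been made in HEK293T with CRISPR/Cas9. Each knockout library came from a cell line of its own, so the spread within a knockout is that between 2 lines, and the control has no replicate. All libraries were made from total RNA, and reads mark the place where an mRNA meets its poly(A) tail, so a count does not grow with transcript length. The libraries held between 1673687 and 2924266 reads, with the control the deepest, and mitochondrial sites took 6.01% to 10.8% of them. CPSF6, the gene of CFIm68, had 319 control reads, beside 138 and 103 in the CFIm68 lines. CPSF7, the gene of CFIm59, had 159 control reads, beside 114 and 134 in the CFIm59 lines, a log2 difference of 0.0436 (adjusted p = 0.947, edgeR's quasi-likelihood test). Reads at an mRNA's 3′ end do not show whether a coding sequence was edited, so CPSF7 reads did not check that label. All results on the CT45A and SAGE1 genes rest on the single control library, so a difference between that culture and the cells the knockout lines came from cannot be told apart from an effect of the knockouts.

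Cleavage factor Im (CFIm) helps to choose where a pre-mRNA is cleaved and polyadenylated. It joins the small subunit CFIm25, which binds UGUA motifs upstream of poly(A) sites, with CFIm59 or CFIm68. Cancer-testis genes are normally read in male germ cells and kept silent in most other tissues, in many cases by DNA methylation of their promoters, and they come on again in tumours and in some cell lines. CT45A genes are a family of near-identical copies that encode small nuclear proteins, and SAGE1 (sarcoma antigen 1) is a neighbour whose protein is known to bind INTS3, a subunit of the Integrator complex that cleaves nascent RNA.

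The sequences around the ends of these mRNAs show how alike the genes are. In GENCODE 29 transcripts, whose genome build (GRCh38) is not that of the read table (hg19), 9 CT45A genes shared a single 30-base stretch near the 3′ end, and SAGE1 had a related stretch. Capitals mark a hexamer 20 or 21 bases before the annotated end of SAGE1 transcripts. In CT45A it lay 30 to 33 bases before the end of most annotated transcripts and 344 before that of the others.
CT45A copies: gaggctAAGAAAtttctgttagtaaaagat
SAGE1: aaatttAATAAAtctctgttagtaaaagct
The SAGE1 hexamer is the usual signal AATAAA, which stood in the last 50 bases of 35.5% of 83119 protein-coding transcripts. The CT45A hexamer is AAGAAA, which stood there in 5.65% of them. Over 100 bases around this place, 22 of 36 pairs of CT45A genes were identical and no pair differed at more than 2 bases. SAGE1 could be aligned with the CT45A copies over 70 of these bases, and matched at 85.7% to 87.1% of the 70. TGTA, the DNA form of the UGUA motif, was in none of these 100-base windows of CT45A genes and SAGE1, searched on the transcript strand. It was in the last 100 bases of 39.4% of the 83119 protein-coding transcripts. The windows of CT45A genes and SAGE1 ended with the 30-base stretch, and those of the 83119 at the annotated end. A read from one CT45A copy can thus match several, and the sources used here do not give how the authors placed such reads, so the split of CT45A reads between copies is uncertain while their sum is less so. Copy names also differ between annotations: the table has 6 CT45A genes and RefSeq 9.

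Since the genes were read or silent together, their promoters are shown too. Of the members, SAGE1 alone matched RefSeq's promoter table (GRCh38.p14), and CT45A1 stands in for the copies. Each stretch runs from 250 bases before the start to 50 after it, and both genes lie on the plus strand, at chrX:135893466-135893765 for SAGE1 and chrX:135713389-135713688 for CT45A1. Capitals mark CG dinucleotides, the places that DNA methylation uses.
SAGE1: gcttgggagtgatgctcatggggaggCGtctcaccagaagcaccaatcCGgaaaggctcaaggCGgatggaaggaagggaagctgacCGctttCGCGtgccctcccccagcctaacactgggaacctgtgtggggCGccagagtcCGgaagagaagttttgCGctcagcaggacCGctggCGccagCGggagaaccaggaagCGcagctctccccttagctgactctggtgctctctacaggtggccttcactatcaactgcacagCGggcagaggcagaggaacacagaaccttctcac
CT45A1: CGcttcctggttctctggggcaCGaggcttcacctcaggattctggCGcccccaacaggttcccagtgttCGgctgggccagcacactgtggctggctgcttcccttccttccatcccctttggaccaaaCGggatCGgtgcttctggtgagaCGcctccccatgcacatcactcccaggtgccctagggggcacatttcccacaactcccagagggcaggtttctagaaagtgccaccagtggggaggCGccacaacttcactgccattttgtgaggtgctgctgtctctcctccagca
SAGE1 held 14 CG sites and CT45A1 held 8, beside a median of 14 over all 35116 promoters in the table. The SAGE1 start lay 272 bases from an annotated start of CT45A10, a copy on the opposite strand that is not in the read table, and their windows shared 229 bases. SAGE1 and CT45A1 matched at 73.8% of 237 aligned bases, and CT45A1 and CT45A7 at 96.1% of 285. Of 5 short motifs searched on both strands, TATAAA (in 11.5% of all promoters) and CACGTG (7.26%) were in none of the family's windows. CCAAT (34.6%), TCCCGC (26.9%) and CCGGAA (17.2%) were in the SAGE1 window and in the overlapping CT45A10 window, which share most of their bases, and not in the others. No methylation was measured in these libraries.

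In the control library, all 7 genes were read. CT45A5 had 40 reads (exact Poisson 95% interval 28.6 to 54.5), CT45A2 and SAGE1 had 33 each (22.7 to 46.3) and CT45A6 had 32 (21.9 to 45.2). Of the other copies, CT45A1 had 22 reads, CT45A4 had 16 and CT45A3 had 14 (7.65 to 23.5). Neighbours in this order had overlapping intervals, and only CT45A5 stood clear of CT45A4 and CT45A3 at the low end. In CPM, the usual rescaling of reads by library total, here after TMM scaling, these levels ran from 5.26 for CT45A3 to 15 for CT45A5, with SAGE1 at 12.4. The intervals cover counting error only, since reads are not independent molecules.

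In the knockout libraries almost nothing was left. SAGE1 had 33 control reads, then 0 and 0 in the CFIm59 lines and 0 and 0 in the CFIm68 lines. CT45A5 went from 40 reads in the control to 0 in each of the 4 knockout libraries. CT45A6 likewise had 32 reads in the control and 0 in each of the 4. CT45A2 had 33 control reads, then 0 and 0 in the CFIm59 lines, and 1 and 0 in the CFIm68 lines. The control thus stood above every knockout library for each gene, and the knockout libraries differed from each other by at most 1 read a gene.

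**Figure D1:**
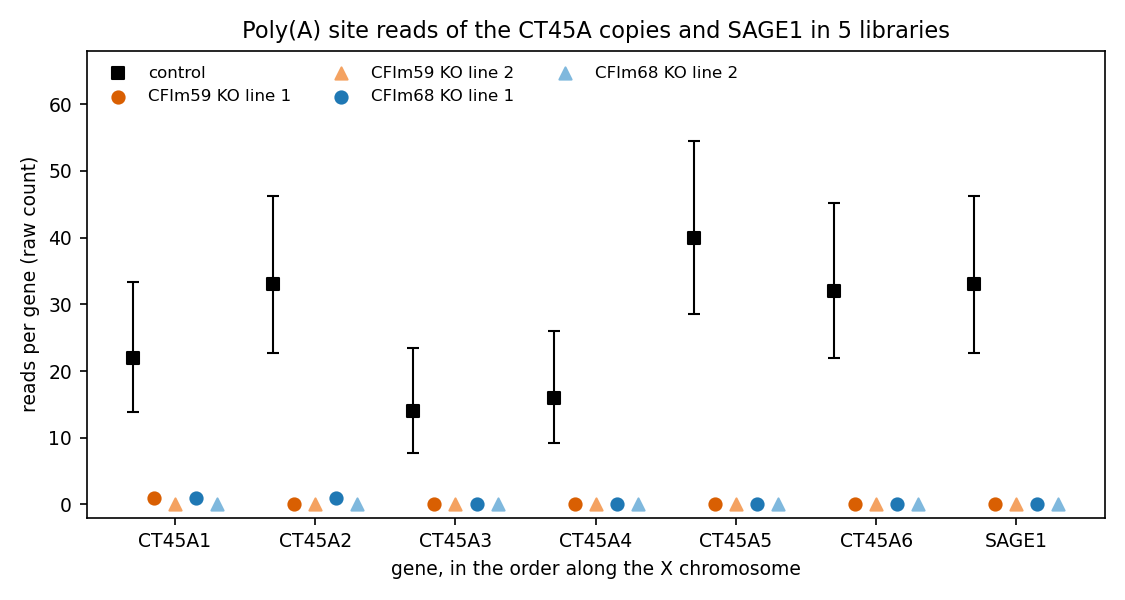
Reads per gene (raw count, vertical axis) of CT45A1 to CT45A6 and SAGE1 in the control (black squares, with exact Poisson 95% intervals) and the 4 knockout lines (colours). The control points lie between 14 and 40 reads, and the knockout points at 0 or 1.

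Summed over the 4 members, the reads were 138 in the control, 0 and 0 in the CFIm59 lines, and 1 and 0 in the CFIm68 lines. At the control's level, 86.4 and 125 reads would have been counted in the CFIm59 lines and 149 and 117 in the CFIm68 lines. The 3 other copies together had 52 control reads, then 1 and 0 in the CFIm59 lines, and 1 and 0 in the CFIm68 lines. Both knockout reads among them were of CT45A1 and lay at an intron site (hg19 chromosome X, position 134851155) that had no read in the control. Of 190 reads of the 7 genes in the control, the CFIm59 lines thus had 1 and the CFIm68 lines 2.

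The size of the loss is bounded by depth. With a floor of 3 reads in a library, the level in the CFIm59 lines was at least 8.35-fold lower than the control for CT45A5. It was at least 6.89-fold lower for CT45A2 and for SAGE1, and at least 6.68-fold lower for CT45A6. For the 4 members summed it was at least 28.8-fold lower. In the CFIm68 lines, CT45A5 was at least 11.3-fold lower, SAGE1 at least 9.32-fold and CT45A6 at least 9.03-fold. CT45A2, with its 1 read, was 63.7-fold lower than the control (exact 95% counting interval 10.7 to 2589). For the 4 members summed over both lines, which rests on the same 1 read, the ratio was 266 (47 to 10589). In CFIm68 line 2, which had no read of the 4, their summed level was at least 39-fold lower. A floor of 3 reads equals 2.01% to 3.47% of the control level of the summed members, so in a library with no read a residual level under that share was not detectable.

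The comparison of CFIm59 knockout with control was not the one that picked the genes, but it uses the same single control library. The members passed the filter on low counts through their control reads alone, and those reads also chose them, so their CFIm59 values are given as a description too, with no test. In that comparison 1006 of 14636 genes (6.87%) were lower and 1022 (6.98%) higher by edgeR's quasi-likelihood test, adjusted after Benjamini and Hochberg. Of the 7 genes, CT45A3 was under the filter. Fewer cells with these mRNAs and less mRNA per cell cannot be told apart in such bulk libraries.

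Few other genes had this pattern. Among 10971 genes with 20 or more reads in the control, 7 (0.0638%) had a mean level under 10% of the control in both knockouts: the 4 members, CT45A1, ALB and DDR2. ALB, which encodes serum albumin and was named after its values were seen, had 70 reads in the control and 0, 1, 0 and 0 in the knockout libraries. Among 9722 genes with 30 or more control reads, 3 had no read in any knockout library, and these were CT45A5, CT45A6 and SAGE1. Since the members were chosen for loss, these counts describe how rare the pattern is in the table and test nothing. In the opposite direction, 24 genes had a control level under 10% of that in both knockouts.

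The genes most like the summed members over the 5 libraries, among those averaging 20 or more reads, were found by the root mean square distance between centred log2 CPM values. DDR2, a collagen receptor kinase, was nearest (distance 1.63), with 101 control reads, then 0 and 5 in the CFIm59 lines and 3 and 3 in the CFIm68 lines. MID1, an X-linked ubiquitin ligase gene outside the region, came next (1.75), with 1035 control reads, then 79 and 100 in the CFIm59 lines and 142 and 73 in the CFIm68 lines. COL7A1, a collagen gene, followed (1.97) with 116 reads, then 4 and 15, and 20 and 19. The other 5 were RP11-386I14.4, BNIP3P1, BNIP3, RP5-857K21.7 and DDIT4, at distances of 2.14 to 2.19. Against the near absence of the CT45A and SAGE1 reads, MID1 kept 8.33% to 12.7% of its control level and DDIT4, a stress-induced inhibitor of mTOR signalling, 14.4% to 41.6%. With 1 control library and 4 knockout libraries, likeness here means little more than being highest in the control.

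**Figure D2:**
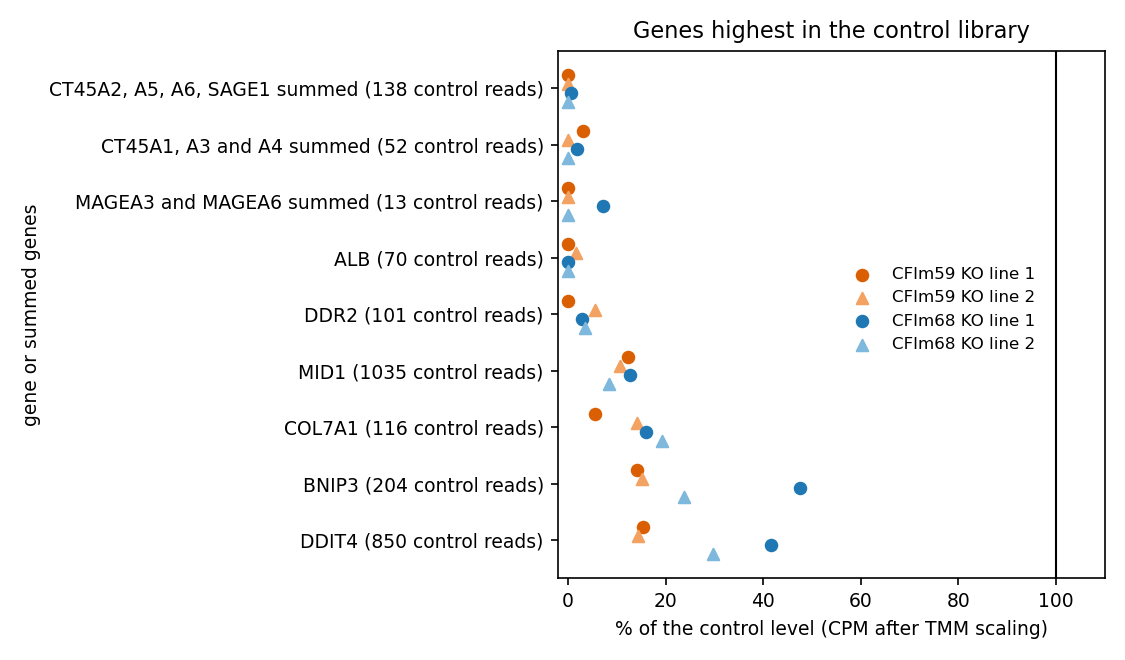
Level in each knockout library as a percentage of the control (horizontal axis, CPM after TMM scaling) for the 4 genes summed, the other CT45A copies, MAGEA3 with MAGEA6, ALB and 5 of the 8 most alike genes. The line at 100 is the control, and the CT45A and SAGE1 points lie at 0 to 3.07. ALB, MAGEA3 and MAGEA6 were picked after their values were seen.

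Where the reads ended was also alike among copies. In each CT45A copy, a last exon site took most or a large part of the control reads: 24 of 40 in CT45A5 (hg19 chromosome X, minus strand, position 134945964), 27 of 33 in CT45A2 (plus strand, 134874247) and 22 of 32 in CT45A6 (minus strand, 134963215). All 33 SAGE1 reads lay at its single site, in the last exon (plus strand, 134995219). Over the 6 copies, the main site held 103 of 157 control reads, or 65.6% (Wilson 95% interval 57.9% to 72.6%). A further last exon site 115 to 120 nt downstream held 10 reads, with at least 1 in each copy.

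Sites that the table classes as upstream exon, which would end the mRNA before its last exon, held 43 of the 157 CT45A reads, or 27.4% (Wilson 95% interval 21% to 34.8%). In all nuclear reads of the control, that class held 1.26%. The reads stood at the same places in the copies: 1944 to 1952 nt upstream of the main site in all 6 (31 reads) and 4122 to 4127 nt upstream in CT45A4 and CT45A6 (11 reads). In CT45A5, 12 reads lay at the nearer upstream site (134947908), or 33.3% of its reads at both sites (20.2% to 49.7%). In CT45A2 the share was 10% (3.46% to 25.6%) and in CT45A6 15.4% (6.15% to 33.5%), and the intervals of the copies overlapped. Whether reads at these upstream sites came from primer binding to A-rich stretches inside the mRNA was not tested. In the knockouts, the upstream exon sites of the 6 copies had no read, and the single read of a member, of CT45A2 in CFIm68 line 1, lay at the main site. A change of site use could therefore not be measured in any of the 4 members.

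**Figure D3:**
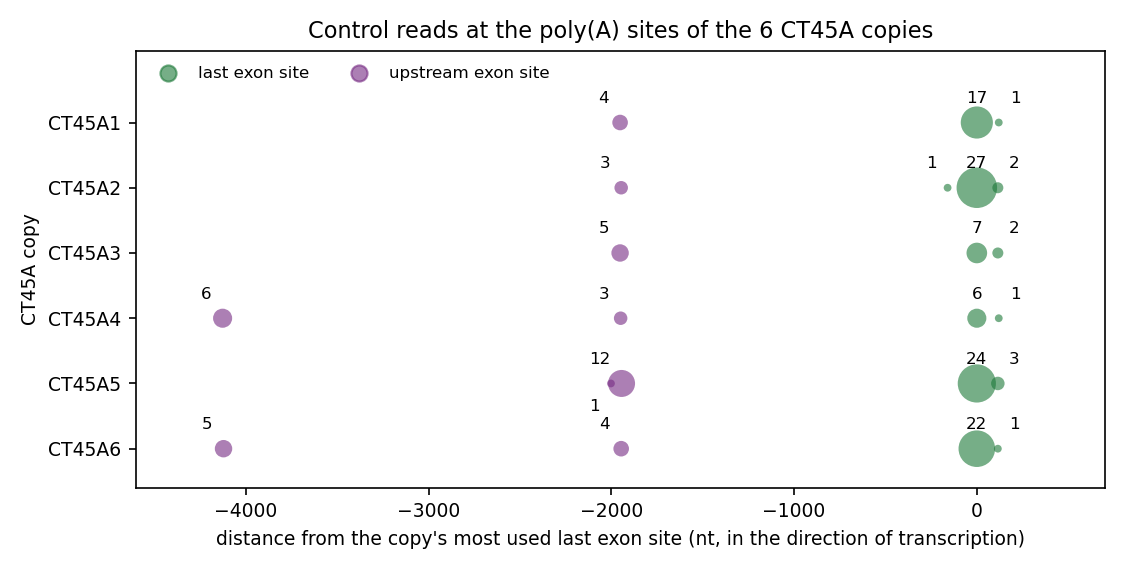
Control reads at each poly(A) site of the 6 CT45A copies, drawn by distance from the copy's most used last exon site (nt, horizontal axis), with circle area and number giving the reads. Circles line up at 0, at 1944 to 1952 nt upstream in all 6 copies, and at 4122 to 4127 nt upstream in CT45A4 and CT45A6.

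The neighbouring genes were still read in the knockouts. On the low side of the cluster, the nearest site with reads in all 4 knockout libraries belonged to DDX26B (INTS6L), a relative of the Integrator subunit INTS6, 135 kb from the first CT45A site (hg19 chromosome X, 134716426). Its control reads were 32, beside 13 and 9 in the CFIm59 lines and 30 and 34 in the CFIm68 lines. On the high side it belonged to MMGT1, a membrane magnesium transporter gene, 49 kb beyond the SAGE1 site (135044236). The control had 275 reads there, the CFIm59 lines 61 and 130, and the CFIm68 lines 190 and 172. Over the 328 kb between these sites, the CT45A and SAGE1 sites had 190 reads in the control and 3 in all knockouts together, and the other sites had 8 reads in the control and 3, 6, 18 and 8 in the knockout libraries. Most of the latter were of RP11-97N5.2, a transcript 29.8 kb beyond the SAGE1 site, with 3 control reads, then 0 and 1 in the CFIm59 lines, and 18 and 8 in the CFIm68 lines.

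Within 2 Mb on each side of the members, 47 of the other genes reported here had reads and 28 were tested. In CFIm59 knockout lines 7 of the 28 were lower than in the control and 0 higher, with a median log2 difference of -0.801, beside 6.87% lower and a median of 0.0196 over all genes. On the whole X chromosome 99 of 514 genes (19.3%) were lower in this comparison. In CFIm68 knockout lines 1 of the 28, PHF6, was lower than in the control and 0 were higher, with a median of -0.276, beside 2.03% of all genes lower, 1.59% higher and a median of 0.0244. Between the knockouts, 11 of the 28 were higher in CFIm68 than in CFIm59 and 1 lower, beside 9.46% and 10.3% of all genes. Among the 11, CCDC160 and RP11-97N5.2 passed the filter on low counts through CFIm68 reads alone, so their part of the count is a description. HPRT1, a purine salvage gene, had 453 control reads, then 124 and 193 in the CFIm59 lines and 344 and 223 in the CFIm68 lines. Its log2 difference from the control was -1.14 (SE 0.246, adjusted p = 0.000818) in CFIm59 and -0.638 (SE 0.242, adjusted p = 0.135) in CFIm68. Of the 7 lower genes, 6 missed the threshold in at least 1 alternative, and HPRT1 did not.

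**Figure D4:**
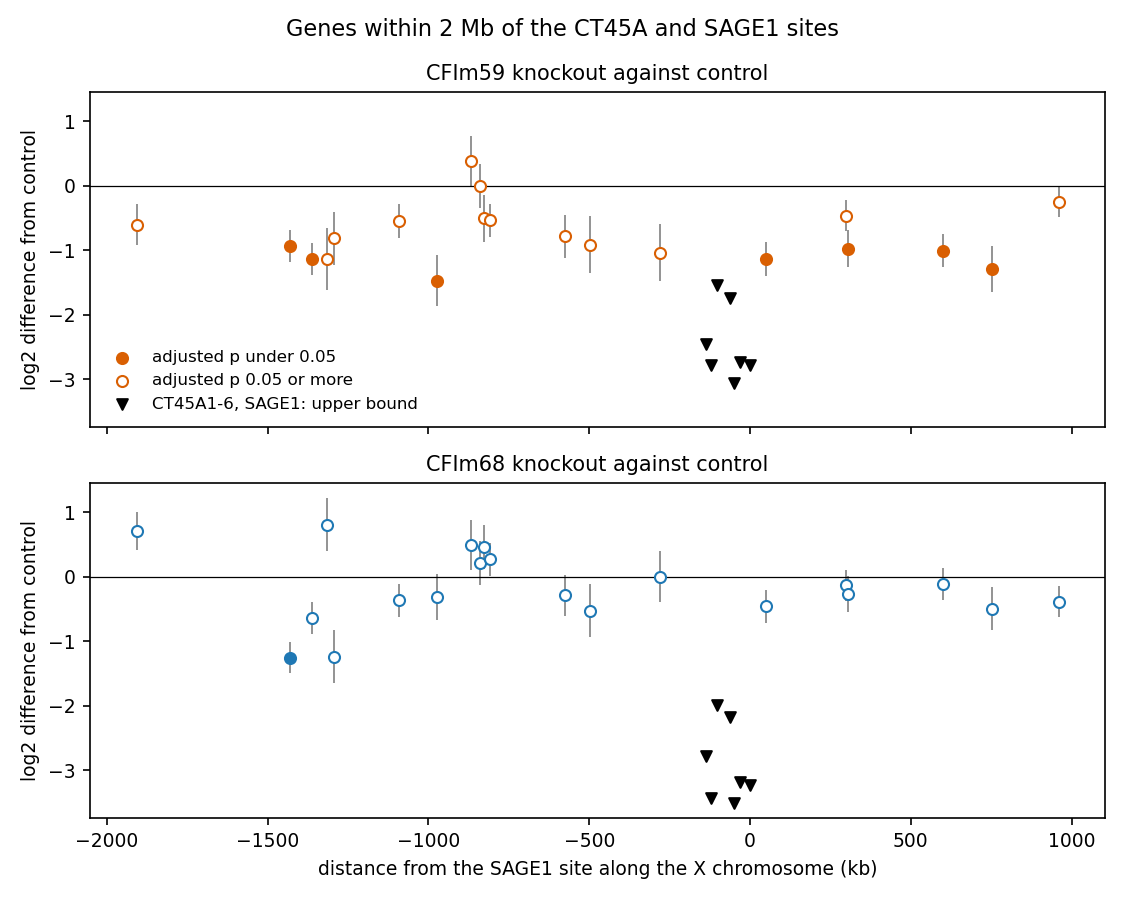
Log2 difference from the control (vertical axis, with SE) of the reported genes averaging 20 or more reads within 2 Mb of the members, by distance from the SAGE1 site (kb), in CFIm59 (upper) and CFIm68 (lower) lines. Black triangles are upper bounds for CT45A1 to CT45A6 and SAGE1, from a floor of 3 reads or the counting interval, and lie below every neighbour drawn.

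Other cancer-testis genes were looked at from a list. Of 125 further X-linked names, 83 were in the table, 38 of these had no read in any library, and 3 had enough reads to be tested. None of the 3, PLAC1, TAF7L and TKTL1, passed against the control in either knockout. Summed over the 83, the level was 42.9 CPM in the control, 18.6 and 41.4 in the CFIm59 lines and 33.7 and 27.5 in the CFIm68 lines. MAGEA3 and MAGEA6, a near-identical pair of melanoma antigen genes with too few reads for a test, were named after their values were seen. They had 6 and 7 reads in the control, 0 in both CFIm59 lines, and 1 read of MAGEA3 in CFIm68 line 1. Other untested genes of the list differed from this. NXF2 had 0 control reads, then 2 and 4, and 2 and 3, and CXorf48 had 3, then 0 and 3, and 3 and 6. PLAC1, a placental gene, had 57 control reads, then 12 and 39 in the CFIm59 lines and 34 and 13 in the CFIm68 lines. Of 24 autosomal cancer-testis or germ cell genes tested, 3 were lower in CFIm59 than in the control (PRAME, CEP55 and SLCO6A1), beside 6.87% of all genes, and 0 were called in CFIm68, with medians of -0.142 and -0.0636. PRAME, a repressor of retinoic acid signalling, had 198 control reads, then 7 and 16 in the CFIm59 lines and 123 and 127 in the CFIm68 lines. It fell by 3.72 on the log2 scale in CFIm59 (adjusted p = 6.19e-12), a call kept under each alternative, while CEP55 missed the threshold with DESeq2 (adjusted p = 0.0613) and SLCO6A1 missed it there too (adjusted p = 0.348). None of the tested genes of these 2 lists was called lower than the control in both knockouts.

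Genes of DNA methylation and heterochromatin were taken as a list because methylation is known to silence cancer-testis genes. Of 43 tested, 1 was lower in CFIm59 than in the control (SUV39H2) and 4 were higher (ATF7IP, UHRF1, MBD3 and EHMT1), beside 6.87% of all genes lower and 6.98% higher. The list's median log2 difference was -0.0239 and that of all genes 0.0196. UHRF1, which brings the maintenance methyltransferase to replicated DNA, had 204 control reads, then 339 and 388 in the CFIm59 lines and 249 and 215 in the CFIm68 lines. It rose by 1.24 on the log2 scale in CFIm59 (adjusted p = 0.000745). In CFIm68, where 2.03% of all genes were lower and 1.59% higher, ATF7IP, a partner of the histone methyltransferase SETDB1, was higher (log2 1.29, adjusted p = 0.0111) and TET1, which oxidises methylcytosine, was lower (log2 -1.61, adjusted p = 0.00713). ATF7IP was higher in CFIm59 too (log2 1.32, adjusted p = 0.0029), with 49 reads in the control, 86 and 100, and 135 and 97. The calls of SUV39H2, MBD3 and EHMT1, and that of ATF7IP in CFIm59, were lost under at least 1 alternative. DNMT1, the maintenance methyltransferase, had 435 reads in the control, 335 and 543, and 382 and 428, and did not pass in either comparison. The part of these genes in the loss of CT45A and SAGE1 reads was not tested.

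Of 19 Integrator genes tested, 2 were lower in CFIm59 than in the control (ASUN and INTS8) and 1 in CFIm68 (INTS6), beside 6.87% and 2.03% of all genes, and 0 were higher in either, with medians of -0.119 and -0.109. Each of these 3 calls was lost under at least 1 alternative. INTS3, the known partner of SAGE1, had 240 control reads, then 128 and 179 in the CFIm59 lines and 171 and 193 in the CFIm68 lines, and did not pass (adjusted p = 0.57 and 0.583).

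Markers of cell types were read beside these results. All 9 kidney progenitor markers known from HEK293 cells had reads, and their summed level was 161 CPM in the control, 105 and 99.4 in the CFIm59 lines and 141 and 203 in the CFIm68 lines. Of the 8 tested, 3 were lower in CFIm59 than in the control (SIX2, CITED1 and EYA1), 1 was lower in CFIm68 (EYA1) and 0 were higher in either. Over all genes, 6.87% were lower in CFIm59 and 2.03% in CFIm68. The median log2 difference of the 8 was -0.217 in CFIm59 and 0.605 in CFIm68. SIX2 had 56 reads in the control, 5 and 11, and 48 and 51, and CITED1 had 62, then 3 and 8, and 93 and 140. EYA1 had 52, then 11 and 21, and 26 and 13 (adjusted p = 0.0279 in CFIm59 and 0.0478 in CFIm68), and both its calls were lost under at least 1 alternative, without CFIm68 line 2 among them (adjusted p = 0.196 in CFIm68). The 6 HEK293 neuronal markers summed to 154 CPM in the control and 164 to 245 in the knockout libraries. Of the 5 tested, 0 were called in CFIm59 against the control. In CFIm68, NEFL was lower than in the control (log2 -0.972, adjusted p = 0.0357), a call lost with DESeq2 (adjusted p = 0.189). ENO2 was higher there (log2 1.6, adjusted p = 0.000512). Over all genes, 2.03% were lower and 1.59% higher in CFIm68. The 9 germ cell markers in the table had 16 reads in the control and 2, 13, 22 and 11 in the knockout libraries. The control reads were of TEX14 (10), ACR (5) and ZPBP (1), and DDX4, DAZL, PIWIL1, MAEL, SYCP3 and PRM1 were at 0 there. Fibroblast markers had 47 reads in the control and 22 to 55 in the knockout libraries, with COL1A2 at 0 in all 5. Blood cell markers had 26 control reads, then 1 and 11 in the CFIm59 lines, and 26 and 16 in the CFIm68 lines, with PTPRC and CD3E at 0 in the control. HBA1, a haemoglobin gene with a near-identical copy, had 16 of the 26 control reads. The CFIm59 lines had 0 and 0 reads of HBA1 and the CFIm68 lines 6 and 3. HBA1 passed the filter on low counts through its control reads alone and was named after its values were seen, so no test is given. Epithelial markers summed to 66.9 CPM in the control and 62.6 to 130 in the knockout libraries, with KRT5 and KRT14 at 0 in all 5. Of the 4 tested, 1 was higher in CFIm59 and 1 in CFIm68, beside 6.98% and 1.59% of all genes, and 0 were lower in either. EPCAM, with 12 control reads, was higher in CFIm59 (80 and 25 reads, log2 2.61, adjusted p = 0.00101). KRT8, with 29, was higher in CFIm68 (124 and 72 reads, log2 1.79, adjusted p = 0.00207). CDH1 (log2 0.0879 in CFIm59 and 0.676 in CFIm68) and KRT18 (-0.249 and 0.656) were not called. The EPCAM call was lost without CFIm59 line 1 (adjusted p = 0.285) and with DESeq2 (adjusted p = 0.324). The part of these markers in the CT45A and SAGE1 results was not tested.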

How the data were processed

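Poly(A) site reads were measured in 5 HEK293T libraries: 1 control, 2 CFIm59 knockout lines and 2 CFIm68 knockout lines. The authors deposited raw read counts per site and library, with hg19 positions and a class for each site, per the file headers. TopHat2 2.1.0 and deepTools 2.4 are named in the submitters' processing notes. The sources used here do not give how multiply matching reads and internal priming were handled, nor whether duplicates were removed. A site listed more than once (17824 repeat listings, all at 0 reads) was counted at its first listing. Sums per gene went through filterByExpr, which kept 14636 genes, and TMM scaling. All 5 libraries entered the quasi-likelihood test of edgeR 4.0.16 in R 4.3.3, with an adjusted p threshold of 0.05, 2-sided. In simulated data at the depth of the CFIm59 comparison, with 14125 genes run, the fit recovered 42% of genes changed by a fold of 2 and 94% at a fold of 4. The changed genes were drawn from those averaging 20 or more reads, with the same spread set for all genes. These shares do not cover genes with fewer reads, the members among them. Intervals are 95% (Poisson, Wilson, or conditional binomial for ratios). A fold against libraries at 0 uses a floor of 3 reads in the shallower library of the group. The members and lists were chosen with earlier results of these data known. Named genes were the members, their sites of 10 or more reads, other CT45A copies, neighbours within 2 Mb and the 8 most alike genes averaging 20 or more reads, list genes that passed a test (up to 4 each way), and CPSF6, CPSF7 and NUDT21. Further genes were named after their values were seen: ALB, MAGEA3, MAGEA6, INTS3, DNMT1, SLCO6A1, TAF7L, HBA1, CCDC160, MIR503HG, RP11-97N5.2, RP11-1114A5.4, and the marker, motif and untested list genes. Alternatives were other scalings, no filter, DESeq2 1.42.0, shared or mitochondrial sites left out, and each line left out. Some neighbouring genes are not reported here and were left out of the counts of neighbours.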

Additional observations from a re-analysis of the deposited data

Results flagged for a closer look

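Between the 2 knockouts, neighbours of the CT45A and SAGE1 genes were flagged where the test of CFIm68 against CFIm59 itself passed. In that comparison 1503 of 14636 genes (10.3%) were lower and 1385 (9.46%) higher. Log2 differences, CFIm68 over CFIm59, were 1.32 for GPC3, 1.15 for MOSPD1, 0.964 for FAM127A, 0.807 for FAM127B, 1.05 for DDX26B, 0.675 for MMGT1, 0.711 for MAP7D3 and 0.901 for HTATSF1. These 8 averaged 20 or more reads and were lower in the CFIm59 than in the CFIm68 lines, and the calls of GPC3 and HTATSF1 held under every alternative run. On the whole X chromosome 113 of 514 genes were higher in CFIm68 than in CFIm59 and 69 (13.4%) lower. Of the 28 neighbours tested, 11 were higher and 1 lower in CFIm68. The other 4 were MIR503HG (log2 1.94), and with under 20 reads on average CCDC160 (2.99), RP11-97N5.2 (4.09) and RP11-1114A5.4, the one lower in CFIm68 (-2.93). The call of MIR503HG held under every alternative run, and those of the other 3 were lost with DESeq2. CCDC160 and RP11-97N5.2 passed the filter on low counts through CFIm68 reads alone, so their differences, and their part of the 11, are a description. The CT45A and SAGE1 genes, with 1 and 2 reads in the knockouts, gave no such difference to test.

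Among the cancer-testis and germ cell genes, the same test gave log2 differences of 3.13 for PRAME, 0.938 for CEP55 and -1.21 for TEX15. In the Integrator list they were 0.797 for INTS4, 1.18 for INTS5 and -1.01 for INTS6. In the DNA methylation and heterochromatin list they were -1.05 for EHMT1, -1.21 for MPHOSPH8 and -0.998 for UHRF1. The calls of PRAME, MPHOSPH8 and UHRF1 held under every alternative run, and each of these others was lost under at least 1. Of 24 autosomal genes tested, 1 was lower and 3 higher. For 19 Integrator genes these were 1 and 3, and for 43 methylation genes 3 and 0. Over all genes, 10.3% were lower and 9.46% higher. Of 8 kidney progenitor markers tested, 4 were higher and 0 lower, with CITED1 (log2 4.1) and SIX2 (2.31) among the 4. Neuronal and epithelial markers had 2 higher and 1 lower each. With under 20 reads on average, TAF7L (0 and 0 reads in the CFIm59 lines, 17 and 10 in the CFIm68 lines, adjusted p = 0.00125) and SLCO6A1 (1 and 3 reads, then 19 and 14, log2 2.66, adjusted p = 0.0074) passed too. The SLCO6A1 call was lost with DESeq2 (adjusted p = 0.141). TAF7L, with 3 control reads, passed the filter on low counts through CFIm68 reads alone, so its difference and adjusted p are a description. That its call held under every alternative run does not change this.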

How the results depend on the processing

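Counts of genes lower and higher moved with the settings. With DESeq2 they were 318 and 284 in CFIm59 against control, 63 and 15 in CFIm68 against control, and 596 and 448 in CFIm68 against CFIm59, beside 1006 and 1022, 297 and 232, and 1503 and 1385. With library totals only, CFIm68 against control gave 120 lower and 433 higher, and the bound on the members' loss in CFIm68 lines (floor of 3 reads in each) was 32.6-fold in place of 39. Leaving out 1 line at a time, CFIm59 against control gave 611 to 1184 lower and 707 to 1223 higher, CFIm68 against control 266 to 334 and 211 to 290, and CFIm68 against CFIm59 890 to 1269 and 742 to 1188. The low ends of the first and the last came without CFIm59 line 2. With the 4 knockout libraries, the fit with the line number as a replicate block gave 1599 lower and 1466 higher, and 1431 and 1314 without the block. Same-numbered lines did not deviate together (correlation 0.00708 over 10970 genes). Summing the 6 CT45A copies as 1 gene, chosen after seeing the data, gave 1001 lower and 1021 higher in CFIm59 against control. The cause of these moves was not tested. Among named genes, 103 values lost their call under an alternative and 0 turned direction. No member had the mean of 20 reads needed for a test of site use, so that test and its alternatives were not run. At 14 to 40 control reads a gene, depth limits the loss of a single gene to a bound.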
